A study of Mus musculus with 12 samples.

Results

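The lung capillary bed is lined by 2 kinds of endothelial cell, and 10 genes known to mark them were followed in cultured mouse lung endothelial cells (MLECs) from mice with or without an inducible endothelial deletion of the transcription factor genes Sp1 and Sp3. The genes were Car4, Ednrb and Apln, which mark aerocytes, Aplnr, Gpihbp1, Plvap and Kit, which mark general capillary cells, and Emcn, Prx and Hpgd, which are enriched in lung capillary or other lung endothelium. They were chosen by name, matched by Ensembl identifier to the deposited table, and all 10 were found among its 28689 genes. The knockout (dKO) libraries, 6 in number, came from MLECs of VE-CAD-CreERT2+/Sp1 fl/fl/Sp3 fl/fl mice, in which tamoxifen activates a Cre recombinase driven by the VE-cadherin promoter. The 6 control (CTR) libraries came from MLECs of tamoxifen-treated floxed littermates without the Cre, labelled as wild type. Mice were adult males, and cells were taken from lung tissue with beads against CD31 and then ICAM-2 and used after a few passages. By design the Cre acts where VE-cadherin is expressed. Whether other cell types that passed the beads kept both genes was not measured here. How many mice stand behind each library is not given, and p values measure the spread between libraries.

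Aerocytes are large, thin endothelial cells that cover much of the alveolar surface and are specialised for gas exchange. General capillary cells are smaller, regulate vasomotor tone and act as stem cells that can renew both kinds after injury. Apelin, the Apln product, is a secreted peptide whose receptor is Aplnr, so that in the lung the ligand is made by aerocytes and received by general capillary cells. Sp1 and Sp3 are zinc finger proteins that bind GC boxes, G-rich elements found in many promoters.

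Upstream sequences of 5 of the 10 genes were read from the GRCm39 genome, because the transcription factors deleted here bind promoters and these 5 cover a rise, a fall and no call, with and without a GC box. Each is the 250 bases just before the annotated start of the Ensembl canonical transcript, written 5′ to 3′ on the strand of the gene, with GC boxes (GGGCGG on either strand) in capitals. The windows are chr15:75468224-75468473 (plus strand, Gpihbp1), chr7:27198491-27198740 (plus strand, Prx), chr8:71964507-71964756 (minus strand, Plvap), chr8:56747293-56747542 (plus strand, Hpgd) and chrX:47123776-47124025 (minus strand, Apln). The Gpihbp1 window overlaps an exon of the long noncoding RNA gene Gm63313 on the other strand, the Prx window lies in an intron of longer Prx transcripts, and the other 3 windows overlap no annotated gene.
Gpihbp1: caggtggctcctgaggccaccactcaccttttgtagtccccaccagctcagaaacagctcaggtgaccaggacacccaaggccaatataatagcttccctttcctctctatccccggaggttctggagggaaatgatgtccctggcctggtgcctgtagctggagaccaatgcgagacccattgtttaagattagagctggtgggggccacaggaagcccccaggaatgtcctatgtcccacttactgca
Prx: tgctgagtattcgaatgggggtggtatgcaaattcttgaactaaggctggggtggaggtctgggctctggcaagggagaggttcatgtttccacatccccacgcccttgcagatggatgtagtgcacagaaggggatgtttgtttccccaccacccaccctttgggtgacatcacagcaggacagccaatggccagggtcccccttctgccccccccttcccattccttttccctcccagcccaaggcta
Plvap: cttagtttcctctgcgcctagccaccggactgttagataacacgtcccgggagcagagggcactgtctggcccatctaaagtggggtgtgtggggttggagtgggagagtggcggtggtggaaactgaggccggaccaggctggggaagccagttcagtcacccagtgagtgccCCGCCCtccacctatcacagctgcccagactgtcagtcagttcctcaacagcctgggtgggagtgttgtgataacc
Hpgd: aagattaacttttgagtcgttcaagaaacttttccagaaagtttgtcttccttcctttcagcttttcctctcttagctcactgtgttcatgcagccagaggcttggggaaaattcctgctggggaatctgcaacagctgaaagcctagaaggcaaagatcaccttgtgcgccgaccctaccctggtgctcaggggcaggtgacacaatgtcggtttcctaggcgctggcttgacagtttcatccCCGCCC
Apln: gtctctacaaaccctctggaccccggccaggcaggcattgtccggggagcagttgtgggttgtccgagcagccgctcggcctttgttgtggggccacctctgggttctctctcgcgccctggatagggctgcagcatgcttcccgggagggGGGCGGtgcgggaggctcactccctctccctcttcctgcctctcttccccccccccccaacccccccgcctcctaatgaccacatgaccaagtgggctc
The box is CCGCCC in Plvap, where it starts at -76 from the transcript start, and in Hpgd, where it starts at -6. It is GGGCGG in Apln, where it starts at -99, and Kit, not printed, holds 1 box at -27. In windows of 300 bases, from 250 upstream to 50 downstream, 4 of the 10 genes (40%) held a box, against 37.7% of 27705 promoters of the table and 56.3% of 12375 promoters of tested genes. The 4 genes with a box include 2 that rose in dKO (Plvap and Hpgd) and 2 that did not pass the test (Apln and Kit), and the 6 without one include Gpihbp1 and Emcn, which rose, and Car4 and Prx, which fell. The Car4 and Ednrb windows, not printed, overlap exons of other transcripts of the same genes, so they do not cover every annotated start. These matches describe letters in a window and say nothing of binding.

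Levels are FPKM, fragments per kilobase of gene and scaled to the fragments of the library, which take gene length into account. The libraries held between 15523054 and 17938286 fragments. Sp1, the first deleted gene, was 21.2 ± 1.77 FPKM in CTR and 10.6 ± 1.53 FPKM in dKO (SD, n = 6 each), and every dKO library lay below every CTR library. Sp3 was 27.7 ± 2.31 FPKM in CTR and 25 ± 1.64 FPKM in dKO, a difference that did not pass the test (log2 fold change -0.14, limma adjusted p = 0.0902). It passed with array weights (limma adjusted p = 0.039) and without CTR replicate 6 (0.0328), and its exact permutation p was 0.0433. The libraries labelled dKO therefore still held transcripts of both genes. Levels summed over a gene do not show whether these transcripts were intact. The paper reports less Sp1 and Sp3 protein in the aortic endothelium of dKO mice, by immunofluorescence. Endothelial RNA was read from 11 pan-endothelial genes, all of which were at 1 FPKM or more in every library and rose in dKO. Their summed level was 232 to 365 FPKM in CTR and 420 to 564 FPKM in dKO. Pecam1 and Icam2, which encode the bead targets CD31 and ICAM-2, are among them, and these levels do not show how pure the cells were. Genes of other cell types were also present: the summed level of 10 macrophage genes was 808 to 1357 FPKM in CTR and 2273 to 5014 FPKM in dKO, and that of 10 fibroblast genes was 2155 to 2751 FPKM in CTR and 843 to 1689 FPKM in dKO. In such bulk samples fewer cells of a type and less RNA per cell cannot be told apart.

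Of the 10 genes, 9 reached 1 FPKM in at least 6 of the 12 libraries and were tested with limma on log2(FPKM + 1), with p adjusted over all 12467 tested genes. Gpihbp1, Plvap, Emcn and Hpgd rose in dKO, Car4 and Prx fell, and Ednrb, Apln and Kit did not pass an adjusted p of 0.05. Among all tested genes 53.1% were called, 20.4% as higher and 32.6% as lower in dKO, so a large share of the transcriptome moved. The median log2 fold change was 0.11 over the 9 genes and -0.10 over all tested genes. On this scale none of the 9 exceeded 1.5 in absolute log2 fold change with an adjusted p under 0.05, which 1.98% of tested genes did. Hpgd, a low gene, exceeded it with smaller pseudocounts and with limma-voom on fragments, reaching 1.66 with a pseudocount of 0.01. Only Gpihbp1 and Prx had groups that did not overlap, against 27.4% of tested genes (11.3% higher and 16.1% lower in dKO).

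**Figure D1:**
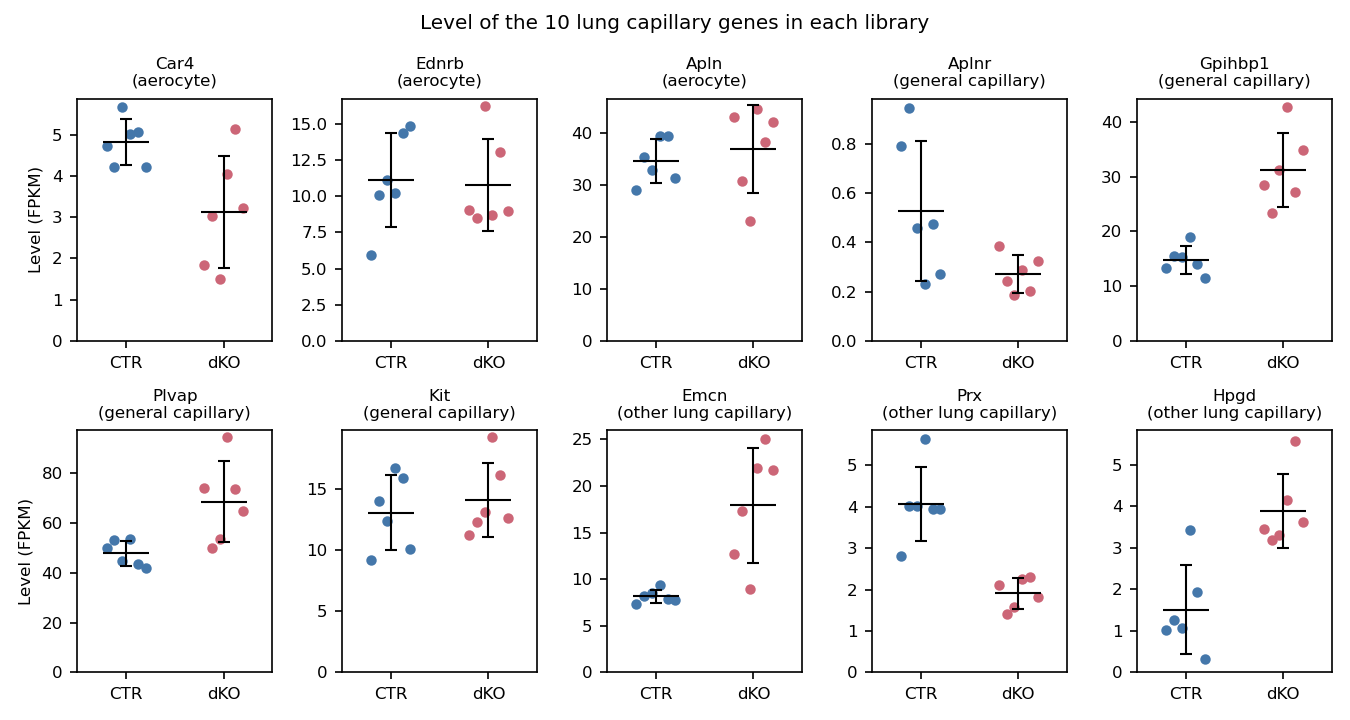
Level of each of the 10 genes in FPKM (vertical axes, each starting at 0) in the 6 CTR (blue) and 6 dKO (red) libraries, where each point is a library, the horizontal bar is the group mean and the error bar is 1 SD. Groups are apart for Gpihbp1, higher in dKO, and for Prx, lower in dKO, while the other 8 genes overlap.

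Car4 encodes carbonic anhydrase 4, an enzyme anchored to the luminal surface of lung capillaries that interconverts carbon dioxide and bicarbonate, and it is the defining surface marker of aerocytes. It lies on chr11:84848020-84856879. Its level in CTR ran from 4.21 to 5.66 FPKM with a median of 4.87. In dKO it ran from 1.51 to 5.14 FPKM with a median of 3.12. All dKO libraries other than replicate 5 lay below every CTR library. The mean fell from 4.81 ± 0.553 to 3.13 ± 1.36 FPKM (SD, n = 6 each), a log2 fold change of -0.56 with a standard error of 0.19 (95% interval -0.96 to -0.15, limma adjusted p = 0.0243). Each library held 52 to 184 Car4 fragments. The call depended on the settings: the adjusted p was 0.054 with no filter on low genes, 0.0526 with median-of-ratios scaling and 0.0527 without CTR replicate 3. The call held without dKO replicate 5 (log2 fold change -0.68, limma adjusted p = 0.00475).

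Ednrb, the endothelin receptor type B, lies on chr14:104052053-104081900 and binds the vasoactive endothelin peptides. Its level was 5.96 to 14.8 FPKM in CTR (median 10.7) and 8.53 to 16.2 FPKM in dKO (median 9.02). The groups overlapped, with only CTR replicate 1 below every dKO library and only dKO replicate 3 above every CTR library. The means were 11.1 ± 3.25 FPKM in CTR and 10.8 ± 3.17 FPKM in dKO (SD, n = 6 each), with a log2 fold change of -0.03 (95% interval -0.47 to 0.41, limma adjusted p = 0.908).

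Apln, on chrX:47114019-47123775, was the most abundant of the 3 aerocyte genes. It ran from 28.9 to 39.4 FPKM in CTR (median 34.1) and from 23.0 to 44.6 FPKM in dKO (median 40.2). The dKO libraries spread to both sides of the CTR range, with 3 of them (replicates 1, 4 and 6) above and 1 (replicate 3) below all CTR libraries. The means were 34.5 ± 4.29 and 36.9 ± 8.45 FPKM (SD, n = 6 each), and the log2 fold change was 0.07 (95% interval -0.25 to 0.39, limma adjusted p = 0.720). The 3 aerocyte genes thus gave 1 fall and 2 differences that did not pass the test, whose 95% intervals span 0.

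Among 10 further aerocyte genes, 9 were tested, 1 rose and 2 fell, with a median log2 fold change of -0.15. Emp2, a tetraspan membrane protein, fell from 111 ± 17.8 to 56.3 ± 4.01 FPKM, a log2 fold change of -0.95 (limma adjusted p = 1.04e-05), and the groups did not overlap. Fibin, a secreted protein, fell by 0.84 on the log2 scale (limma adjusted p = 0.00641). Whether the Emp2 and Fibin transcripts came from endothelial cells was not tested, and the fibroblast sums given above were also lower in dKO. Kdr, the main receptor of vascular endothelial growth factor A, rose from 4.85 ± 0.829 to 9.41 ± 2.09 FPKM, a log2 fold change of 0.82 (limma adjusted p = 0.000249). Kitl, which encodes the ligand of the general capillary receptor Kit, was 28.0 ± 3.04 FPKM in CTR and 27.5 ± 5.52 FPKM in dKO (log2 fold change -0.04, limma adjusted p = 0.791). The transcription factor genes Tbx2 and Tbx3, Cyp4b1, Cdkn2b and Chst1 also did not pass, and Rprml, listed at 0 in all CTR libraries, was not tested.

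Of the general capillary genes, Gpihbp1 changed most and Aplnr was barely detected. Gpihbp1 encodes the capillary protein that carries lipoprotein lipase across the endothelium and holds it at the luminal surface, and it lies on chr15:75468474-75471331. Its level ran from 11.4 to 18.9 FPKM in CTR (median 14.7) and from 23.3 to 42.7 FPKM in dKO (median 29.9). Every dKO library was above every CTR library. The mean rose 2.12-fold, from 14.8 ± 2.53 to 31.3 ± 6.77 FPKM (SD, n = 6 each). The log2 fold change was 1.03 with a standard error of 0.14 (95% interval 0.73 to 1.33, limma adjusted p = 6.79e-05), and an exact two-sided permutation test of the means gave the smallest p possible with 6 against 6 libraries, 0.00216. A called rise at least as large was found for 3.69% of tested genes.

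Plvap encodes the protein that forms the diaphragms of endothelial fenestrae and caveolae, and it had the highest level of the 10 genes in both groups. It lies on chr8:71948674-71964506. It ran from 41.8 to 53.5 FPKM in CTR (median 47.4) and from 49.8 to 94.5 FPKM in dKO (median 69.3). All dKO libraries other than replicate 2 lay above the CTR range. The mean rose 1.43-fold, from 47.8 ± 5.0 to 68.4 ± 16.2 FPKM (SD, n = 6 each), a log2 fold change of 0.48 with a standard error of 0.14 (95% interval 0.19 to 0.78, limma adjusted p = 0.01). The gene overlaps Gtpbp3 on the opposite strand, which was at 6.04 FPKM in CTR and 5.22 FPKM in dKO, and the strand setting of the counting is not given in the sources used here.

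Kit, on chr5:75735576-75817404, encodes a receptor tyrosine kinase that is also found on mast cells and progenitor cells. Its level was 9.20 to 16.7 FPKM in CTR (median 13.2) and 11.3 to 19.3 FPKM in dKO (median 12.8). The ranges overlapped, with CTR replicates 1 and 6 (9.20 and 10.1 FPKM) below every dKO library and dKO replicate 4 above every CTR library. The means were 13 ± 3.04 and 14.1 ± 3.01 FPKM (SD, n = 6 each), with a log2 fold change of 0.11 (95% interval -0.22 to 0.45, limma adjusted p = 0.562). The summed level of 6 mast cell genes was 1.15 to 5.49 FPKM in CTR and 1.64 to 4.77 FPKM in dKO. Of these, Mcpt4, Cma1, Tpsab1 and Ms4a2 were under 1 FPKM in every library. Cpa3 was at 2.16 FPKM in CTR and 3.16 FPKM in dKO and did not pass (limma adjusted p = 0.191). Hdc, not tested for its low level, was at 0.774 FPKM in CTR and 0.138 FPKM in dKO, with groups that did not overlap.

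Aplnr, the apelin receptor and a defining general capillary marker, lies on chr2:84966569-84970267 and was the least abundant of the 10 genes. It ran from 0.232 to 0.944 FPKM in CTR (median 0.466), which is 15 to 59 fragments per library, and from 0.185 to 0.383 FPKM in dKO (median 0.266), which is 12 to 22 fragments. The dKO libraries sat in and below the lower part of the CTR range, with 2 below all CTR libraries. The means were 0.528 ± 0.284 and 0.271 ± 0.0759 FPKM (SD, n = 6 each), and an exact two-sided permutation test gave p = 0.0476, not adjusted for the 10 genes. Leaving out 1 library raised that p above 0.05 for 9 of the 12 libraries, and it was 0.0649 with median-of-ratios scaling. The gene lies within Lrrc55os, a long noncoding RNA gene on the same strand that was at 0.409 FPKM in CTR and 0.159 FPKM in dKO, so that fragments of the pair may not have been told apart.

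Of 10 further general capillary genes 7 rose, 3 did not pass and 0 fell (limma, also at an unadjusted p under 0.05). Their median log2 fold change was 0.47. Cd93, a C-type lectin-like endothelial receptor, rose from 35.9 ± 4.49 to 81.2 ± 14.1 FPKM, a log2 fold change of 1.15 (limma adjusted p = 6.28e-06). Hilpda, a lipid droplet protein that inhibits triglyceride breakdown, had a log2 fold change of 0.81 (limma adjusted p = 0.0006). Cd36, a fatty acid receptor and transporter, had one of 0.69 (limma adjusted p = 0.00373). Tek, Lpl, Glp1r and Ptprb rose with log2 fold changes between 0.45 and 0.49, and Cxcl12, Adgrl3 and Sema3c did not pass. Lpl and Cd36 are also expressed by macrophages, whose summed level was higher in dKO.

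Emcn, Prx and Hpgd all changed. Emcn encodes endomucin, a sialomucin on the surface of capillary and venous endothelium that limits leukocyte adhesion, and it lies on chr3:137046794-137138999. It ran from 7.37 to 9.35 FPKM in CTR (median 8.02) and from 8.99 to 25.1 FPKM in dKO (median 19.5). The CTR libraries were tight, and among the dKO libraries only replicate 3 fell within their range. The mean rose 2.2-fold, from 8.17 ± 0.699 to 17.9 ± 6.15 FPKM (SD, n = 6 each), a log2 fold change of 0.98 with a standard error of 0.20 (95% interval 0.55 to 1.40, limma adjusted p = 0.00122). Without dKO replicate 3 the log2 fold change was 1.15.

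Prx encodes periaxin, a PDZ domain protein of myelinating Schwann cells that is also found in lung endothelium, and it lies on chr7:27196813-27219639. Its level ran from 2.82 to 5.63 FPKM in CTR (median 3.98) and from 1.41 to 2.31 FPKM in dKO (median 1.96). Every dKO library was below every CTR library. The mean fell from 4.06 ± 0.900 to 1.91 ± 0.374 FPKM (SD, n = 6 each), so that CTR was 2.12-fold higher. The log2 fold change was -0.79 with a standard error of 0.12 (95% interval -1.05 to -0.53, limma adjusted p = 0.000181, exact permutation p = 0.00216). A called fall at least as large was found for 4.38% of tested genes. Of the genes of myelinating Schwann cells 3 were tested: Pmp22 (log2 fold change 1.21) and Mbp (0.60) rose and Egr2 fell by 0.92.

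Hpgd encodes 15-hydroxyprostaglandin dehydrogenase, which inactivates prostaglandin E2, and it lies on chr8:56747543-56774082. Its level ran from 0.314 to 3.44 FPKM in CTR (median 1.17) and from 3.20 to 5.56 FPKM in dKO (median 3.53). CTR replicate 4 lay above 2 of the dKO libraries, and the other CTR libraries lay below all of them. The mean rose 2.57-fold, from 1.51 ± 1.08 to 3.88 ± 0.889 FPKM (SD, n = 6 each), a log2 fold change of 1.04 with a standard error of 0.23 (95% interval 0.54 to 1.55, limma adjusted p = 0.00232). Without CTR replicate 4 it was 1.23, and with a pseudocount of 0.01 it was 1.66. The libraries held 9 to 101 Hpgd fragments in CTR and 90 to 164 in dKO. The 10 lung epithelial genes, a list of cells that also make the enzyme, had their highest CTR sum in the same replicate 4, at 538 FPKM against a low of 123 FPKM. Over the groups this sum was 123 to 538 FPKM in CTR and 224 to 401 FPKM in dKO, with 2 of 9 tested genes called as higher (Krt8 and Epcam), and its part in the Hpgd difference was not tested.

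**Figure D2:**
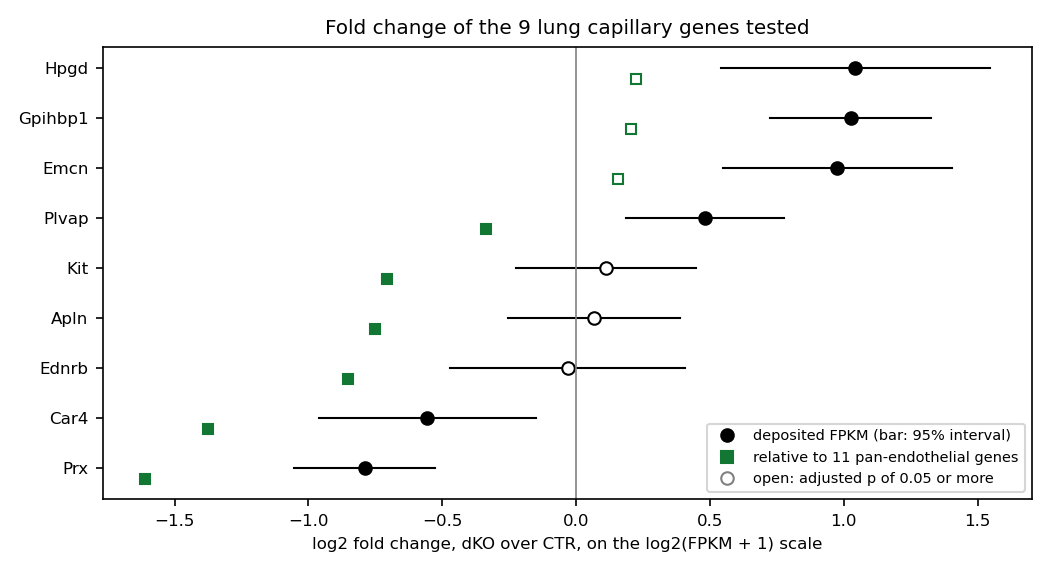
Log2 fold change, dKO over CTR, on the log2(FPKM + 1) scale (horizontal axis) of the 9 tested genes. Black circles are the deposited FPKM with 95% intervals, green squares are the same values relative to 11 pan-endothelial genes, and open symbols have an adjusted p of 0.05 or more; circles lie between -0.79 (Prx) and 1.04 (Hpgd), and every square lies left of its circle.

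The rises of the capillary genes went along with rises of genes that all endothelial cells share. All 11 pan-endothelial genes rose, with a median log2 fold change of 0.84, and Tie1 (1.26), Icam2 (1.25) and Erg (1.03) led them. When each library was centred on the mean of these 11 genes, a setting chosen after seeing the data, 0 of the 9 capillary genes rose (limma, also at an unadjusted p under 0.05) and 6 fell. Gpihbp1 had a log2 fold change of 0.21 (limma adjusted p = 0.140), Emcn of 0.16 (0.370) and Hpgd of 0.22 (0.221). Plvap turned to -0.34 (limma adjusted p = 0.0198), so its rise on the log2 scale was smaller than the mean rise of the 11 pan-endothelial genes. Car4 (-1.38), Prx (-1.61), Ednrb (-0.85), Apln (-0.75) and Kit (-0.71) were all past the threshold as lower. This centring moved the median of all tested genes from -0.10 to -0.91 and called 10881 of the 12467 as lower, so a fall relative to the endothelial genes was the common case. Rises of other genes were also no longer past the threshold under it, among them those of Cd93, Kdr, Fabp4, Efnb2, Gja5 and Ptges, and those of Cd36, Ece1, Gja4, Hilpda, Lpl and Ptgr1 turned to negative values.

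Other vessel beds also moved. Of 8 arterial genes 6 rose and 0 fell (limma, also at an unadjusted p under 0.05, median log2 fold change 0.44), led by the connexin gene Gja5 (1.23), the ephrin gene Efnb2 (1.03) and Gja4 (0.65). Of 6 tested venous genes 4 rose and 1 fell (median 0.50), and of 6 tested lymphatic genes 3 rose and 1 fell (median 0.58). Mmrn1, the lymphatic gene that fell, was 14.6 ± 4.06 FPKM in CTR and listed at 0 in all dKO libraries.

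**Figure D3:**
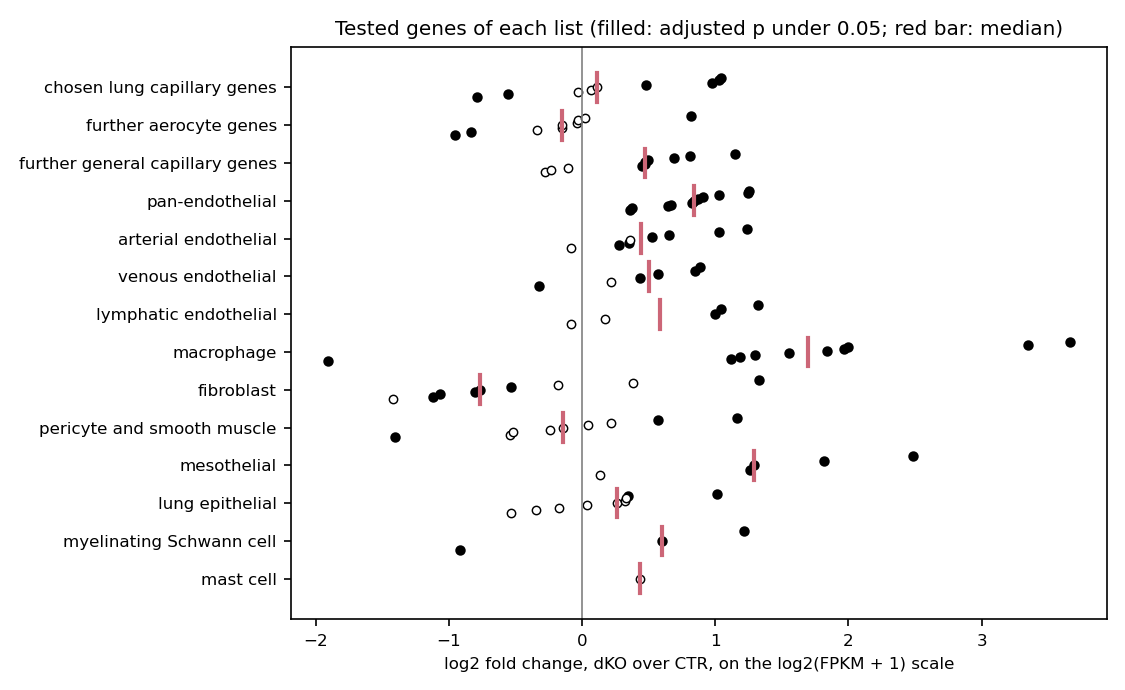
Log2 fold change, dKO over CTR, on the log2(FPKM + 1) scale of each tested gene of 14 lists (rows), where filled points have an adjusted p under 0.05 and red bars are medians. The chosen lung capillary genes have a median of 0.11, the further aerocyte genes of -0.15, the further general capillary genes of 0.47 and the pan-endothelial genes of 0.84; Mmrn1, listed at 0 in dKO, has no point but counts in its list's median.

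Genes of other cell types moved with the knockout as well. All 10 macrophage genes were called, 9 as higher and 1 (Marco) as lower, with a median log2 fold change of 1.69. Of 9 tested fibroblast genes 5 fell and 1 (Dcn) rose (median -0.77), of 9 tested pericyte and smooth muscle genes 2 rose and 1 fell (median -0.14), and of 5 tested mesothelial genes 4 rose (median 1.29). The summed mesothelial level was 21.4 to 30.7 FPKM in CTR and 58.2 to 135 FPKM in dKO. The part of these cell types in the levels of the capillary genes was not tested.

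The partners of the capillary genes were read from lists of their pathways. In the apelin and endothelin list, Ece1, the enzyme that cuts the endothelin precursor to its active form, rose from 34.8 ± 2.32 to 59.0 ± 9.50 FPKM (log2 fold change 0.73, limma adjusted p = 5.19e-05) and was the 1 of 3 tested genes to pass. Edn1, the main endothelial endothelin, was 17.2 ± 2.41 FPKM in CTR and 22.6 ± 5.50 FPKM in dKO (log2 fold change 0.35, limma adjusted p = 0.0642). It passed with the replicate number as a block (limma adjusted p = 0.048), with array weights (0.0396), with median-of-ratios scaling (0.0222), without CTR replicate 5 (0.0478) and without dKO replicate 3 (0.0077), and was past the threshold as lower (-0.47) when centred on the pan-endothelial genes. Ednra, the other endothelin receptor, was 30.8 ± 13.2 and 21.9 ± 8.22 FPKM (limma adjusted p = 0.233). Apela, the second ligand of Aplnr, and Edn3 were under 1 FPKM in every library.

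Among 9 genes of lipoprotein lipase action and fatty acid uptake, the pathway that Gpihbp1 serves, 5 rose and 1 fell, with a median log2 fold change of 0.49. Lpl and Cd36 are among these rises and were also counted among those of the further general capillary genes. Lpl, the lipase that Gpihbp1 binds, rose from 17.7 ± 3.48 to 24.6 ± 1.88 FPKM (log2 fold change 0.47, limma adjusted p = 0.00321). Fabp4, a fatty acid binding protein of capillary endothelium, rose from 15.6 ± 1.96 to 31.0 ± 2.64 FPKM (log2 fold change 0.95). Vldlr, a lipoprotein receptor, fell from 24.8 ± 6.15 to 11.7 ± 2.77 FPKM (log2 fold change -1.03). Macrophages also express Lpl, Fabp4 and Cd36, and the macrophage sums given above moved in the same direction.

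Around Hpgd, 8 genes of prostaglandin E2 synthesis, uptake and breakdown gave 2 rises and 2 falls, with a median log2 fold change of 0.04. Ptges, the inducible prostaglandin E synthase, rose from 15.5 ± 4.81 to 35.5 ± 18.6 FPKM (log2 fold change 1.08, limma adjusted p = 0.00572), and Ptgr1, a reductase of prostaglandin metabolites, had a log2 fold change of 0.39 (limma adjusted p = 0.0312). The Ptgr1 call was lost with no filter (0.0622), with TPM (0.0505) and without CTR replicate 5 or dKO replicate 2, 4 or 6 (0.0523 to 0.0677). Ptges3 fell by 0.42 and Cbr1 fell by 0.28. Slco2a1, the transporter that takes prostaglandins into cells, was 4.30 ± 0.843 FPKM in CTR and 5.29 ± 1.26 FPKM in dKO and did not pass (limma adjusted p = 0.154).

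Around Car4, 6 of 14 other carbonic anhydrase genes in the table were tested, of which 2 rose (Car13 and Car8) and 2 fell (Car6 and Car2). The secreted enzyme Car6 fell from 4.11 ± 2.28 to 0.482 ± 0.510 FPKM (log2 fold change -1.74, limma adjusted p = 0.00021), and the groups did not overlap. With a pseudocount of 0.01 this log2 fold change was -3.68. The cytosolic enzyme Car2 was far more abundant than Car4 on the FPKM scale, at 39.5 ± 7.05 FPKM in CTR and 29.8 ± 5.34 FPKM in dKO (log2 fold change -0.39, limma adjusted p = 0.0346). The Car2 call was lost with no filter (0.0686), with median-of-ratios scaling (0.101) and without CTR replicate 2, 3, 4 or 5 or dKO replicate 1 or 5 (0.0598 to 0.0757), and that of Car13 with TPM (0.0505) and without dKO replicate 3 (0.0538).

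The order of the 10 levels in CTR, in mean FPKM, was Plvap, Apln, Gpihbp1, Kit, Ednrb, Emcn, Car4, Prx, Hpgd and Aplnr. Neighbours whose ranges were apart in CTR were Plvap and Apln, Apln and Gpihbp1, and Emcn and Car4, and the ranges of the other neighbours overlapped. In dKO the order was Plvap, Apln, Gpihbp1, Emcn, Kit, Ednrb, Hpgd, Car4, Prx and Aplnr, and only Plvap and Apln, Ednrb and Hpgd, and Prx and Aplnr were apart. Emcn had passed Kit and Ednrb, and Hpgd had passed Car4 and Prx.

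The spread between libraries also differed between genes. The coefficient of variation of Emcn was 8.56% in CTR and 34.3% in dKO, and that of Car4 was 11.5% and 43.4%, whereas that of Hpgd was 71.4% in CTR and 22.9% in dKO. The 6 dKO libraries stood in the same order for Car4 and for Emcn, from replicate 3 through 1, 2, 6 and 4 to replicate 5. In CTR the replicates ran 6, 2, 1, 4, 5 and 3 for Car4 and 1, 6, 5, 2, 3 and 4 for Emcn. There 0 of 6 held the same rank, although low and high replicates were partly shared and Car4 was 4.21 FPKM in both replicates 2 and 6. This pair was singled out after the values were seen, as the highest of 36 pairs (Pearson r of 0.93 over the 12 libraries, after subtracting the group means). Points of this kind share library and depth. The summed macrophage level was highest in dKO replicate 3, at 5014 FPKM, and lowest in dKO replicate 5, at 2273 FPKM. Between them it fell through replicates 6, 4, 1 and 2, which is not the order of Car4 and Emcn. In dKO the summed venous level was lowest in replicate 3 (86.1 FPKM) and highest in replicate 5 (140 FPKM). The lymphatic sum had the same ends (112 and 226 FPKM), whereas the pan-endothelial sum was highest in replicate 4 (564 FPKM). The part of these cell types in the Car4 and Emcn levels was not tested.

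**Figure D4:**
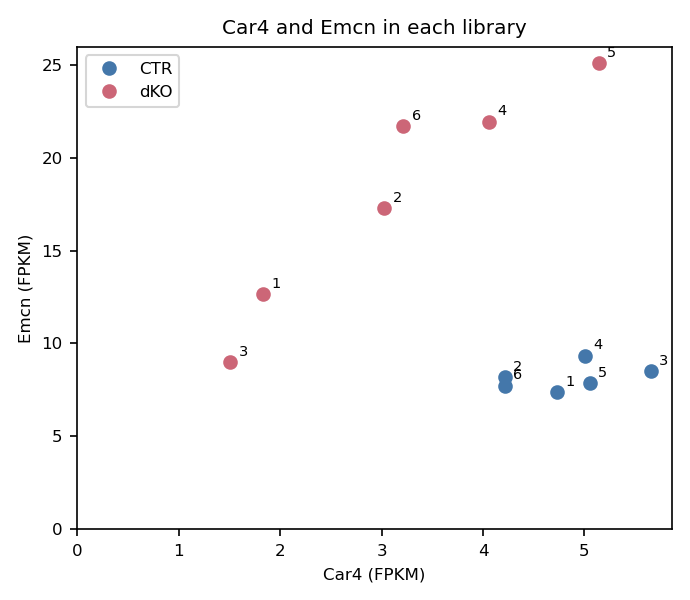
Car4 (horizontal axis) and Emcn (vertical axis) in FPKM in each library, with CTR in blue, dKO in red and replicate numbers beside the points. The CTR libraries sit between 7.37 and 9.35 FPKM of Emcn at every Car4 level, and the dKO libraries run from replicate 3 (1.51 FPKM of Car4, 8.99 of Emcn) to replicate 5 (5.14 and 25.1).

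Genes of like pattern were sought among all tested genes, by the same correlation over 12 libraries. This was done for the 3 genes with the largest fold changes on the log2(FPKM + 1) scale. Hpgd was most like Dcn (r = 0.95), a matrix proteoglycan gene of fibroblasts that rose from 6.82 to 17.8 FPKM, and Rfxank (0.95). Gpihbp1 was most like Zdhhc7 (0.94) and Cd34 (0.91), the latter a sialomucin of capillary endothelium. Emcn was most like Mmp17 (0.97) and 1110038F14Rik (0.94). These are descriptions of shared spread between libraries.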

How the data were processed

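Gene expression of MLECs was measured by RNA-seq in 12 libraries, 6 per group, grouped by the sample labels. The authors deposited FPKM values per gene. Table columns named CTR match the control titles, and the other 6, whose name abbreviates tamoxifen (given to both groups), were taken as dKO from the labels, with the level of Sp1 as a check. Per the methods, libraries were made with a NEBNext kit, and reads were checked with FastQC, trimmed with Trimmomatic, aligned to mm39 with STAR, and uniquely aligned reads were extracted with sambamba and aligned again. The labels instead name retina tissue and a TruSeq kit in the extraction text, and the submitters' processing notes list Bowtie2 2.2.3, HISAT2 2.1.0, TopHat2 without roles; that this text belongs to these libraries was not settled. The counting program, annotation and strand setting are not given in the sources used here.

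Symbols and positions came from GENCODE M39 on GRCm39, the build that mm39 names, by Ensembl identifier (27706 of 28689 genes matched). A gene was tested if 6 or more of the 12 libraries reached 1 FPKM (12467 genes), on log2(FPKM + 1) with limma 3.58.1 (lmFit, eBayes with trend) in R 4.3.3, with Benjamini-Hochberg adjustment over all of them, a threshold of 0.05 and no covariate, and fold changes on this scale understate those of low genes. Differences in mean FPKM had exact two-sided permutation tests over 924 splits. The authors tested their genes with DESeq2, a count model, which was not used here because FPKM are not counts. Whole fragments were recovered from the FPKM (100% of 28689 genes, within 0.001 fragments), giving 15523054 to 17938286 per library, and served depth and alternatives only. No library repeated another (lowest chi-square per degree of freedom 12.2 over 30 pairs), and no label gives a batch. The fits were tested on simulated data. Tables and plots were made in Python 3.11.15 with pandas 2.3.3 (NumPy 2.4.6), numba 0.67.0 for the fragment search, and figures with Matplotlib 3.10.9.

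The 10 genes and all lists were chosen with earlier results of these data known. Besides the 10 genes, Sp1, Sp3 and their ligands and partners, genes named are up to 3 of each list with the largest fold change among those called, and for likeness the 2 best genes for each of 3 genes; other names were chosen after their values were seen. Alternatives were pseudocounts of 0.1 and 0.01, no filter, a filter of 5 FPKM, TPM, median-of-ratios scaling, array weights, the replicate number as a block, limma-voom on fragments, and leaving out each library; limma-voom on all genes and pan-endothelial centring were added after seeing the data.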

Additional observations from a re-analysis of the deposited data

How the results depend on the processing

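Gpihbp1, Plvap, Emcn, Prx and Hpgd kept their direction and stayed past the threshold under each alternative other than centring on pan-endothelial genes in which they were tested, libraries left out included. The log2 fold change of Car4 was no longer past the threshold with no filter (-0.56, limma adjusted p = 0.054) and with median-of-ratios scaling (-0.48, 0.0526), and over the libraries left out it ran from -0.68 to -0.42, with 1 of 12 (without CTR replicate 3, -0.52) no longer past it. Its difference in FPKM with median-of-ratios scaling was -1.40 (exact permutation p = 0.0519). Differences close to 0 changed sign: Ednrb with median-of-ratios scaling (0.055, and 0.399 FPKM) and over the libraries left out (-0.18 to 0.056, and -1.44 to 0.403 FPKM), Apln with array weights (-0.0031), and Kitl with median-of-ratios scaling (0.052) and without CTR replicate 6 (0.0094) or dKO replicate 4 (0.015). Aplnr differed by -0.230 FPKM with median-of-ratios scaling (exact permutation p = 0.0649) and by -0.316 to -0.174 FPKM over the libraries left out, with p from 0.0108 to 0.104. With a filter of 5 FPKM, which leaves out Car4, Prx and Hpgd, 3 of the genes were past the threshold and 0 were lower. The count of lower genes was 1 with no filter and with median-of-ratios scaling, and 1 to 2 over the libraries left out, and the count of genes with groups apart was 2 to 4 (4 without CTR replicate 4). Median-of-ratios scaling moved the median of all genes from -0.10 to -0.02, and the share of calls that were higher from 38.5% to 51.6%.

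Centring on the 11 pan-endothelial genes gave 0 higher genes (limma, also at an unadjusted p under 0.05) and 6 lower genes: Car4 (-1.38), Prx (-1.61), Ednrb (-0.85), Apln (-0.75), Kit (-0.71) and Plvap (-0.34). Gpihbp1 (0.21), Emcn (0.16) and Hpgd (0.22) were not past the threshold. It also turned to lower the values of Car13 (-0.50), Cd36 (-0.13), Ece1 (-0.086), Edn1 (-0.47), Epcam (-0.48), Ephb4 (-0.25), Gja4 (-0.17), Hilpda (-0.011), Lpl (-0.35), Mbp (-0.22), Myh11 (-0.25) and Ptgr1 (-0.43). It ended the calls of Cd93 (0.33), Efnb2 (0.21), Erg (0.21), Fabp4 (0.13), Flt4 (0.23), Gja5 (0.41), Kdr (0.00078), Krt8 (0.20), Msln (0.47), Prss23 (0.029), Ptges (0.26), Rgs5 (0.35) and Selp (0.068). By construction it subtracts the mean rise of those 11 genes.

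With the replicate number as a block, 6 of the genes were past the threshold, no call among them changed, Edn1 passed (limma adjusted p = 0.048), and 55.8% of all tested genes were called, against 53.1% without the block. Same-numbered CTR and dKO libraries had correlations of their deviations from -0.11 to 0.57, and 2 of 6 correlated best with their own number, so the numbers were not taken as pairs. Depth limits the low genes, with 12 to 59 fragments of Aplnr and 9 to 164 of Hpgd per library.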
